A study of Mus musculus with 15 samples.

Results

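Cyclic nucleotide phosphodiesterases are the enzymes that end cyclic AMP and cyclic GMP signals. The 10 members described here (Pde1c, Pde2a, Pde3a, Pde3b, Pde4a, Pde4b, Pde4d, Pde5a, Pde7a and Pde8a) were taken by gene symbol from a count table of 55536 mouse genes. All 10 symbols were found, each paired with an Ensembl gene identifier of a protein-coding gene. Counts came from RNA of ventricular nuclei sorted for Pcm1, a protein of centriolar satellites that marks cardiomyocyte nuclei. The 15 libraries carry labels of Pgr genotype, for the gene of the progesterone receptor, and of sex. They are 4 females and 4 males labelled Pgr_KO and 3 females and 4 males labelled Pgr_WT. The labels do not describe the knockout allele, the strain background or any pooling of animals, and the tissue label carries a range of 3 to 6 with no unit. They also do not tie replicates to separate animals, so the p-values reflect the spread among these libraries, which may be technical.

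In heart muscle, beta-adrenergic receptors raise cyclic AMP through adenylyl cyclases, and protein kinase A then phosphorylates calcium channels, ryanodine receptors, phospholamban and troponin I. Nitric oxide and natriuretic peptides raise cyclic GMP through guanylyl cyclases. Phosphodiesterases are held at anchoring proteins beside these targets, so that each family limits the signal in a small space. Families differ in substrate: PDE4, PDE7 and PDE8 enzymes are specific for cyclic AMP, PDE5 for cyclic GMP, and PDE1, PDE2 and PDE3 hydrolyse both. PDE3 is inhibited and PDE2 stimulated by cyclic GMP, and PDE1 is activated by calcium and calmodulin.

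Promoter sequences of RefSeq (GRCm38.p6, 250 bases before to 50 after a start) were at hand for 7 of the 10 members, 18 sequences in all. The promoters of Pde5a and Pde4d are shown because these genes had the highest and the lowest slope, among those 7, on the level of other-cell markers described further on. The window of Pde5a lies at chr3:122728908-122729207 and that of Pde4d at chr13:108653927-108654226, both on the plus strand. Capitals mark each CG dinucleotide.
Pde5a: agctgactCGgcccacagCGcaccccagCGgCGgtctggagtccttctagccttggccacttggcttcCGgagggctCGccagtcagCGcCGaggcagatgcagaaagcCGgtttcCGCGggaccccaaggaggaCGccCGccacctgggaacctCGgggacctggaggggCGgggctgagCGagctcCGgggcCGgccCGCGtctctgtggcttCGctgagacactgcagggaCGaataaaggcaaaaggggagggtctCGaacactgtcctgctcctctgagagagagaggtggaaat
Pde4d: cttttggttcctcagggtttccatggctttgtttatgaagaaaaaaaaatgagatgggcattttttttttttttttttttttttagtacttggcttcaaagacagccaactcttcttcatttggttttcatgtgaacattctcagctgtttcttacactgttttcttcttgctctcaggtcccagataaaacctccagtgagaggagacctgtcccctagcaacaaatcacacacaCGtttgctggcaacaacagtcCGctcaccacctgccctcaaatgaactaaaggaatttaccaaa
The Pde5a window holds 23 CG dinucleotides and the Pde4d window 2, against a median of 7 over 32851 mouse promoter windows. The Pde4d window lies inside the gene body, which starts at 108449948, so it belongs to an internal start. Reads over whole gene bodies do not separate the transcripts from different starts, of which GENCODE M21 lists 20 transcripts for Pde4d and 13 for Pde4b. The cyclic AMP response element TGACGTCA, which reads alike on both strands, was in 0 of the 18 member windows and in 1.79% of all windows.

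Total counts ran from 24.4 to 139.4 M per library (median 49.9 M), and levels are given as CPM, reads per 1 M of the library after edgeR's TMM scaling. Pgr reads went against the genotype labels: Pgr stood at 8.69 to 12.5 CPM and 6.10 to 7.15 CPM in the female and male libraries labelled knockout, and at most at 0.267 and 0.166 CPM in those labelled wild type. Directions between genotypes are therefore given by label. The knockout-labelled female replicate 2, wild-type-labelled female replicate 2 and wild-type-labelled male replicate 2 held reads of genes of the other sex (Xist or 4 Y-linked genes above 2% of their mean in that sex) and are called sex-mixed here. A marker level was computed for each library from the log2 CPM of 12 endothelial, 10 fibroblast and 9 mural cell genes. It is the mean of the list means, so that each list weighs the same. It was 4.06 to 4.87 in 6 libraries (replicates 1 and 2 under the knockout label in each sex, replicate 1 under the wild-type label in each sex) and 1.001 to 2.55 in the other 9. The summed level of cardiomyocyte markers was 44066 to 70969 CPM in the 6 and 57750 to 75013 CPM in the 9. The fibroblast sum was 422 to 1172 against 41.7 to 162 CPM, the endothelial sum 348 to 609 against 24.6 to 85.5 CPM, and the leukocyte sum 53.0 to 123 against 11.2 to 40.5 CPM. The mural sums overlapped (148 to 266 against 108 to 225 CPM). Adipocyte markers summed to 0.7102 to 2.21 against at most 0.169 CPM.

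The count of 0 for Pde2a is not read as a level here. Pde2a (chromosome 7, 101421691 to 101512827, plus strand), the cyclic GMP-stimulated enzyme, had 0 reads in all 15 libraries. The annotated gene Gm45837 (chromosome 7, 101410886 to 101512819, same strand) covers 99.99% of its body, and Gm45837 itself held 687 reads over the 15 libraries. Small genes annotated on the same strand inside Pde1c, Pde3a and Pde4d were also listed at 0, among them the microRNA genes Mir582 and Mir1904 within Pde4d. The treatment of reads that fall in 2 genes is not stated in the labels, and the part of the overlap in the count of 0 was not tested. The other 9 members had reads in each library and passed the low-count filter with 17455 tested genes. At most 2.86% of the body of any of these 9 is shared with another gene on the same strand.

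The 4 members Pde4d, Pde4b, Pde7a and Pde3a stood together at the top of the family. Per kilobase of gene body and over 15 libraries, Pde4d was at 4.96 ± 0.977 CPM per kb (SD), Pde4b at 4.71 ± 0.807, Pde7a at 4.69 ± 0.8003 and Pde3a at 4.25 ± 0.770 CPM per kb. Each of these 4 lay above 95.8% to 96.7% of the tested genes on this scale. Within libraries, Pde4d exceeded Pde4b in 9 of 15, Pde4b exceeded Pde7a in 7 of 15 and Pde7a exceeded Pde3a in 9 of 15. The mean log2 ratios of these neighbours (0.07, 0.0036 and 0.15) were smaller than their SD (0.26, 0.24 and 0.30), so their order is not resolved.

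Pde1c followed at 1.46 ± 0.343 CPM per kb, below Pde3a in 15 of 15 libraries (mean log2 ratio 1.56 ± 0.35). Pde1c and Pde4a (1.24 ± 0.279 CPM per kb) did not differ beyond their spread, with Pde1c the higher in 8 of 15. Pde8a stood at 0.374 ± 0.0448 CPM per kb, below Pde4a in 15 of 15 libraries. Pde3b at 0.0475 ± 0.0419 and Pde5a at 0.0345 ± 0.0268 CPM per kb were the lowest with reads, each under Pde8a in all 15. Pde3b exceeded Pde5a in 12 of 15 libraries. Per kb of gene body Pde3b and Pde5a lay above 20.8% and 18.0% of tested genes, and by CPM above 49.1% and 44.9%. In each of the 4 label groups the same 4 genes led, and Pde8a, Pde3b and Pde5a followed in that order after Pde1c and Pde4a. The leader was Pde4d in 3 groups and Pde4b (5.17 CPM per kb) in females labelled wild type, where Pde4d was the third at 4.59 CPM per kb.

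**Figure D1:**
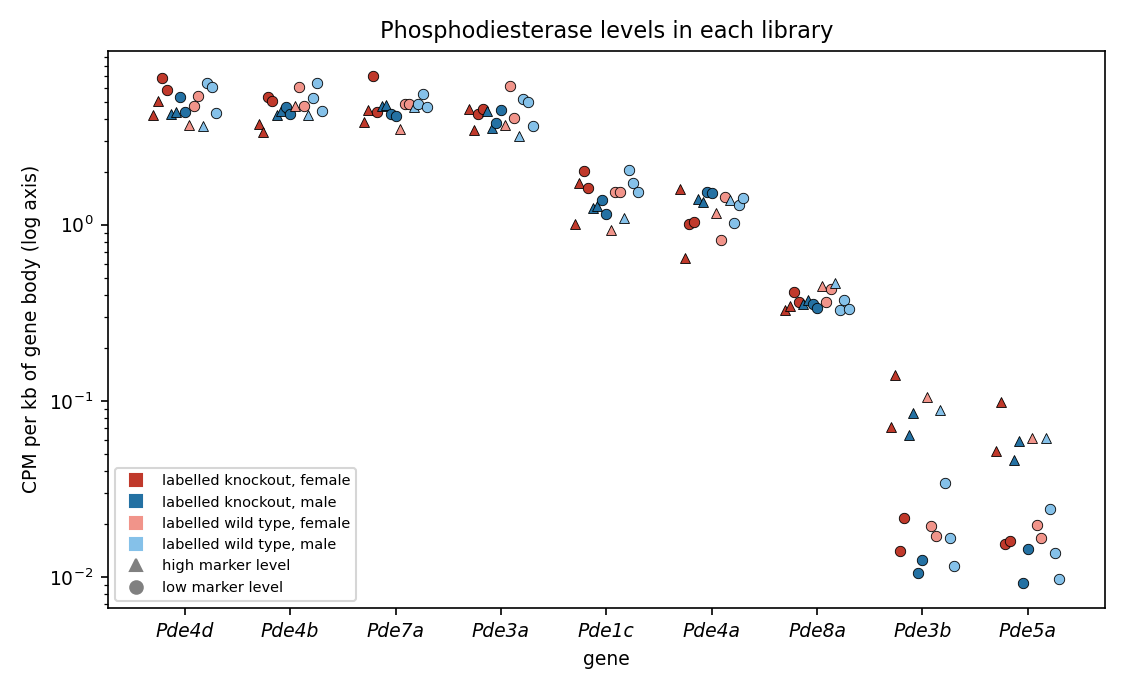
Level of 9 phosphodiesterase genes in CPM per kb of gene body (log axis) in each of 15 libraries, each point a library, colour the label group and shape the marker level set. Pde4d, Pde4b, Pde7a and Pde3a overlap at the top, and the 6 triangles of Pde3b and Pde5a lie above all 9 circles.

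The order depends on which length is used. Pde4d (chromosome 13, 108449948 to 109953461) spans 1503.5 kb of gene body with 12.0 kb of annotated exon, and Pde7a (chromosome 3, 19223108 to 19311322) spans 88.2 kb with 7.75 kb of exon. The same reads divided by exon length gave 621 CPM per kb of exon for Pde4d, 232 for Pde4b, 86.2 for Pde3a and 53.4 for Pde7a, and 5 of the 9 members with reads kept their rank. In reads alone, the 10 genes took 1.04% to 1.48% of all counts of a library. Pde4d made up 54.3% to 65.5% of these and Pde4b 15.03% to 24.95%.

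Per kb of gene body Pde3a far exceeded its paralogue Pde3b, while Pde4d and Pde4b were close. Pde3a, the PDE3 gene tied to calcium cycling in heart muscle, exceeded Pde3b, known for its role in insulin signalling of fat cells, by a per-kb ratio of 24.5 to 69.0 in the 6 libraries of high marker level and 152 to 361 in the 9 others. The Pde4d to Pde4b ratio per kb lay between 0.778 and 1.51 in all 15. Its mean was 1.27 ± 0.171 (SD, n = 4) in females labelled knockout and 0.897 ± 0.202 (n = 3) in females labelled wild type, where the lowest of the former (1.129) and the highest of the latter (1.130) just overlap. In males it was 1.05 ± 0.0681 under the knockout label and 1.005 ± 0.152 under the wild-type label (n = 4 and 4). This ratio was picked for its values and not tested. Pde4b exceeded Pde4a by a ratio of 2.34 to 7.38.

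The members differed in how far they varied. Pde8a varied least, with a coefficient of variation of 12.0% over the 15 libraries and a highest level 1.42 times the lowest. Pde7a, Pde4b, Pde3a, Pde4d, Pde4a and Pde1c followed at 17.1% to 23.6%. Pde5a at 77.5% and Pde3b at 88.1% varied most, and within the 9 libraries of low marker level they came to 30.1% and 41.3%.

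The first comparison asks whether the genotype label goes with a change in each sex. In neither sex did any of the 9 tested members pass at an adjusted p of 0.05 (edgeR quasi-likelihood test, Benjamini-Hochberg adjustment over 17455 genes). Among all genes the same rule called 0% in females and 0.0115% in males. The count at an unadjusted p under 0.05 was 0 of 9 in each sex (303 genes of all tested in females and 247 in males), and DESeq2 also called 0 members. The CPM ranges of the label groups overlapped for each of the 9 members in each sex, while 1.92% of tested genes in females and 1.6% in males had ranges apart.

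Among the cyclic AMP-specific PDE4 genes, Pde4b, a regulator of calcium channel signalling in the heart, was measured in the female libraries labelled knockout at 1942, 1740.1, 2763 and 2608 CPM and in those labelled wild type at 2452, 3152 and 2461 CPM. In males it was at 2173, 2301, 2423 and 2199 CPM under the knockout label and at 2167, 2724, 3314 and 2304 CPM under the wild-type label. The group means were lower under the knockout label in both sexes and the ranges overlapped. The log2 fold changes were -0.25 ± 0.19 (SE) in females and -0.21 ± 0.17 in males, with edgeR adjusted p = 1.0 and 0.999.

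Pde4d, which is found with the ryanodine receptor complex, stood at 6344, 7591, 10218 and 8795 CPM in females labelled knockout and at 5523, 7132 and 8045 CPM in females labelled wild type. Males had 6382, 6591, 8022 and 6575 CPM under the knockout label and 5476, 9644, 9101 and 6482 CPM under the wild-type label. The log2 fold change was 0.26 ± 0.22 in females and -0.16 ± 0.20 in males. Pde4a (chromosome 9, 21165714 to 21213248), the third PDE4 gene, lies 12.2 Mb from Pgr on the same chromosome, and its values were -0.09 ± 0.24 and 0.18 ± 0.23. Its lowest level, 30.9 CPM, was in the knockout-labelled female replicate 2, a sex-mixed library and the one with the highest marker level. The other 14 lay between 39.1 and 76.1 CPM, and the highest was in the knockout-labelled female replicate 1, also of high marker level.

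For the dual-substrate genes, Pde1c was at 503, 857, 1011 and 811 CPM in females labelled knockout and at 466, 768 and 768 CPM in those labelled wild type. In males it was at 624, 637, 689 and 572 CPM under the knockout label and at 548, 1025, 865 and 766 CPM under the wild-type label, where 3 of 4 libraries exceeded all 4 of the other label. The log2 fold changes were 0.25 ± 0.25 and -0.35 ± 0.23. Pde3a ranged from 822 to 1574 CPM over all libraries, with -0.13 ± 0.21 in females and -0.07 ± 0.19 in males. Pde3b had 0.40 ± 1.04 and 0.19 ± 0.95, with errors larger than the differences.

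The cyclic GMP-specific Pde5a, the target of sildenafil, had log2 fold changes of 0.48 ± 0.87 in females and 0.24 ± 0.80 in males. Of the cyclic AMP-specific PDE7 and PDE8 genes, Pde7a was at 0.16 ± 0.19 and -0.14 ± 0.17. Pde8a had the smallest error, at -0.20 ± 0.13 and -0.08 ± 0.12. It lay at 39.7, 41.6, 50.1 and 44.1 CPM in females labelled knockout against 54.5, 44.3 and 51.9 CPM, and at 42.8, 45.1, 42.8 and 40.8 CPM in males labelled knockout against 56.4, 39.8, 45.2 and 40.1 CPM.

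The members' median log2 fold change was 0.16 in females and -0.08 in males, against 0.03 and 0.02 over all tested genes. A high marker level was found in 2 of 4 libraries of each sex under the knockout label and, under the wild-type label, in 1 of 3 females and 1 of 4 males. With that level as a term, the male values of Pde3b and Pde5a were -0.40 and -0.18, and in the libraries of low marker level alone they were -0.83 and -0.41. In females the low-level libraries alone gave -0.03 and -0.21 for these genes.

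**Figure D2:**
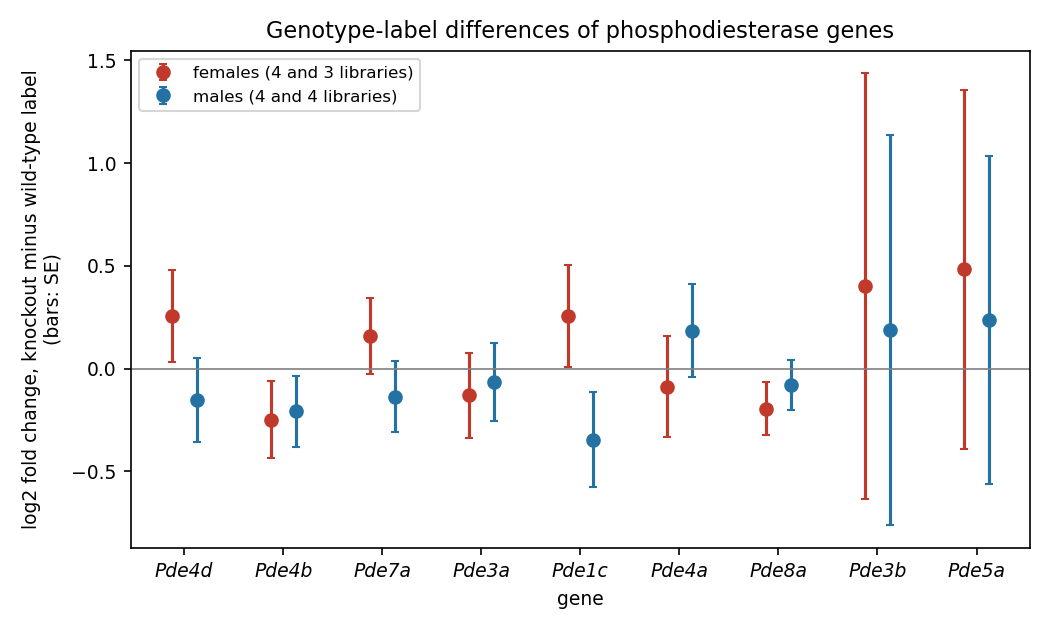
Log2 fold change of 9 phosphodiesterase genes between the genotype labels (knockout minus wild type), with bars of 1 SE, in females (4 and 3 libraries) and males (4 and 4). All values lie between -0.35 and 0.48, and the bars of Pde3b and Pde5a, at 0.799 to 1.04, are the longest.

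The question of the series title, whether the label's effect differs between the sexes, gave 0 called members of 9 and 0% of all genes. The smallest unadjusted p-values were those of Pde1c, with a log2 effect higher in females by 0.60 ± 0.34, and Pde4d at 0.41 ± 0.30 (edgeR adjusted p = 1.0 for each). Female against male libraries under the knockout label gave 0 called members, where 0.0229% of genes were called. Pde4a was at -0.44 ± 0.23 there (edgeR adjusted p = 0.757) and Pde1c at 0.34 ± 0.23 (edgeR adjusted p = 0.774). Under the wild-type label 0 members and 0% of genes were called, with Pde8a at 0.15 ± 0.13 and Pde1c at -0.26 ± 0.25 (edgeR adjusted p = 1.0 for each). The CPM ranges of the sexes overlapped for all 9 members under each label, where 3.18% and 2.95% of tested genes had ranges apart. These comparisons share libraries with each other and with those of the genotype labels.

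Pde3b and Pde5a rose steeply with the marker level of other cardiac cells, and they are the 2 least abundant members with reads. Pde3b lay between 7.92 and 17.5 CPM (median 10.8) in the 6 libraries of high marker level and between 1.31 and 4.22 CPM (median 2.05) in the 9 of low level. Pde5a lay between 6.02 and 12.8 CPM (median 7.86) in the 6 and between 1.21 and 3.18 CPM (median 1.998) in the 9. The 2 sets of libraries did not overlap for either gene, a separation also seen upward in 13.6% of tested genes. The ratio of means was 5.29 for Pde3b and 4.08 for Pde5a. The read counts behind these levels were 63 to 1068 for Pde3b and 67 to 786 for Pde5a.

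A slope on the marker level was fitted with the 4 group means in the model, in log2 units of a gene per log2 unit of marker level. A slope of 1 means a gene that moves as far as this averaged level. Its markers moved unequally: mural sums overlapped between the sets of libraries, while endothelial and fibroblast sums did not. Of the mural genes, Acta2 (49.8 to 131 CPM at high and 49.99 to 177 CPM at low marker level), Cspg4 and Higd1b overlapped. Rgs5 (29.1 to 80.9 against 6.22 to 13.4 CPM), Pdgfrb, Notch3, Vtn, Myh11 and Ndufa4l2 were each higher in all libraries of high marker level. The marker level averages log2 CPM and does not use these sums. Pde3b rose with a slope of 0.92 ± 0.06 (SE, edgeR adjusted p = 1.23e-09) and Pde5a with 0.76 ± 0.05 (edgeR adjusted p = 3.44e-09). Pde4d fell with -0.13 ± 0.04 (edgeR adjusted p = 0.0247) and Pde4b with -0.12 ± 0.03 (edgeR adjusted p = 0.0168). So 2 of 9 tested members rose and 2 fell, where the same rule called 20.7% of all genes as rising and 8.62% as falling, and so few members give no contrast with these shares. The members' median slope was -0.08, against -0.02 over all genes. In bulk samples, fewer cells of a type and less RNA per cell cannot be told apart.

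The other 5 members missed the threshold. Their slopes were -0.12 ± 0.05 for Pde1c (edgeR adjusted p = 0.11), -0.09 ± 0.05 for Pde3a (0.169) and -0.08 ± 0.04 for Pde7a (0.175). Pde4a at -0.01 ± 0.06 (0.914) and Pde8a at 0.02 ± 0.03 (0.696) had values nearest to 0. Pde4d lay between 5476 and 7591 CPM (median 6363) in the 6 libraries and between 6482 and 10218 CPM (median 8045) in the 9, and Pde4b between 1740.1 and 2452 CPM (median 2170.0) and between 2199 and 3314 CPM (median 2608). Both overlapped between the sets, with ratios of means of 0.768 and 0.8002.

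**Figure D3:**
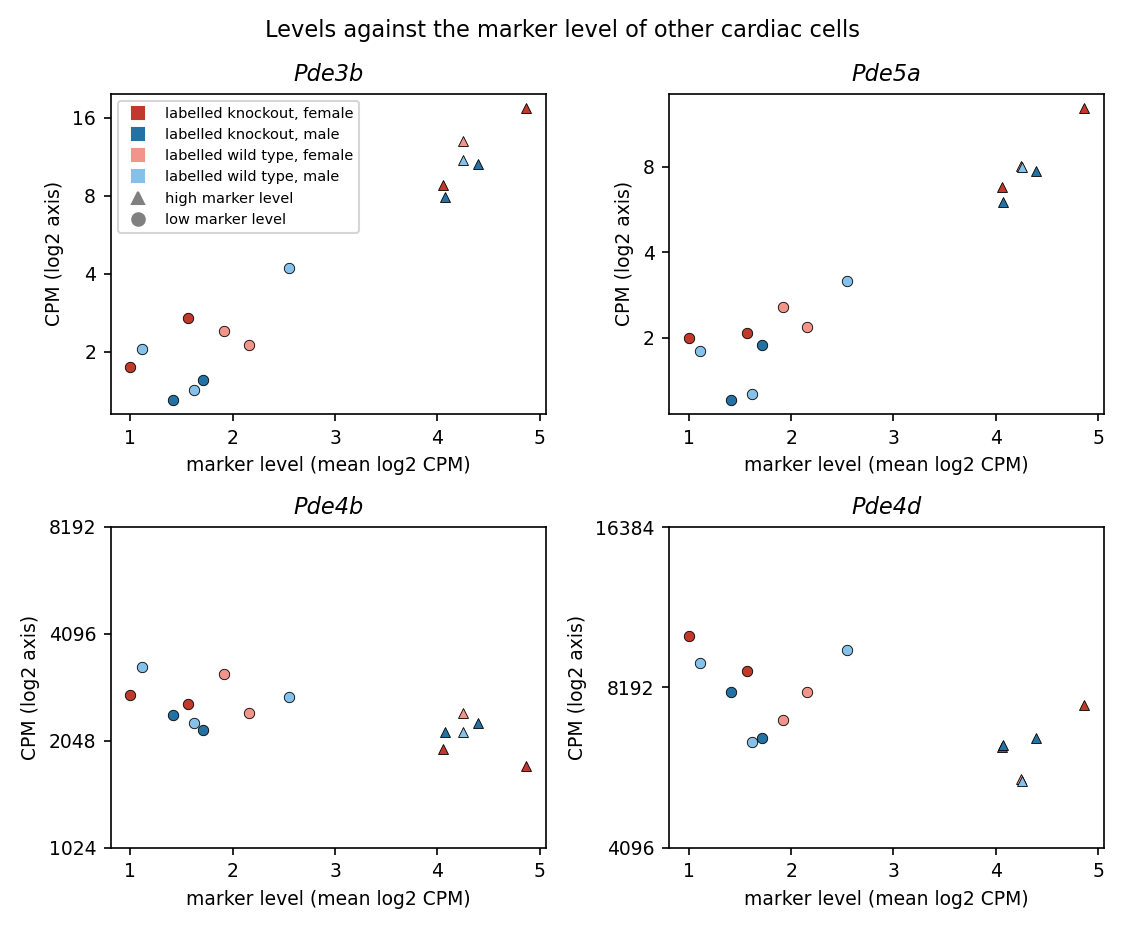
CPM (log2 axis) of Pde3b, Pde5a, Pde4b and Pde4d against the marker level, 1 point per library. The level is the mean of the endothelial, fibroblast and mural list means of log2 CPM. Pde3b and Pde5a are higher in all 6 libraries of high marker level, while Pde4b and Pde4d overlap between the sets.

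The calls of Pde3b and Pde5a held in 24 of 25 alternative fits each and were lost in the 9 libraries of low marker level alone, at 0.84 (adjusted p = 0.311) and 0.63 (adjusted p = 0.728). In those 9 libraries Pde4b was at -0.18 and Pde4d turned to 0.0390 (edgeR adjusted p = 0.999 for each). The calls of Pde4b and Pde4d rest on less in the other fits too: without the wild-type-labelled male replicate 1, the adjusted p was 0.0521 and 0.0918 and 2 members were called. Pde4b was also lost without the knockout-labelled female replicate 2 (0.0592) and with the 3 sex-mixed libraries left out (0.0946). Pde4d was lost with fibroblast markers alone as the level (0.0517), without the knockout-labelled male replicate 3 (0.053), without the wild-type-labelled female replicate 1 (0.0637) and with the replicate number as a block (0.22). With that block Pde3a was called at -0.30 (adjusted p = 0.00779). Without the knockout-labelled female replicate 2, Pde1c was called at -0.17 (adjusted p = 0.0258), and with the 3 sex-mixed libraries left out at -0.18 (adjusted p = 0.0134).

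Of 14 further genes, listed by their Pde symbol and not by enzyme activity, 10 passed the low-count filter. Pde7b, the paralogue of Pde7a, had the highest level at 1.55 ± 0.209 CPM per kb, followed by Pde6d at 0.756 ± 0.0768 and Pde6g at 0.333 ± 0.133 CPM per kb. In the genotype comparisons 0 of the 10 were called, beside 0% of all genes in females and 0.0115% in males. On the marker level 5 of these 10 rose and 1 fell, beside 20.7% and 8.62% of all genes, and so few genes give no contrast with these shares. The 5 that rose, named after their values were seen, were Pde1a (1.14 ± 0.05), Pde9a (0.85 ± 0.06), Pde8b (0.79 ± 0.07), Pde1b (0.77 ± 0.13) and Pde10a (0.60 ± 0.09), and the 1 that fell was Pde7b (-0.10 ± 0.03). Of these, Pde1b had few reads, at a mean of 0.366 CPM and 0 in its lowest library. Paralogues such as Pde1a and Pde1c, Pde3b and Pde3a, or Pde8b and Pde8a had different slopes in these fits. Other paralogues, such as Pde7a and Pde7b or Pde4b and Pde4d, had slopes of the same sign and similar size. These pairs were named for their values. The differences between genes were not tested.

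Of 70 pathway genes in the table, for the synthesis, effectors, anchors and cardiac substrates of cyclic nucleotides, 68 were tested. Between the genotype labels 0 of 68 were called in either sex, beside 0% of all genes in females and 0.0115% in males. The smallest unadjusted p-values in females were those of the G protein subunit Gnai1 at 0.56 ± 0.23, the small heat shock protein Hspb6 at -0.53 ± 0.24, the kinase anchor Akap7 at 0.22 ± 0.10 and the pacemaker channel Hcn4 at -0.38 ± 0.19. In each sex 2 of the 68 had an unadjusted p under 0.05, beside 303 of 17455 genes in females and 247 in males. In females the 2 were Gnai1 and Hspb6. In males Adcy8, an adenylyl cyclase, was below that limit at -0.57 ± 0.16, while the anchor Akap11 at -0.22 ± 0.14 and the phospholemman gene Fxyd1 at 0.38 ± 0.25 were not.

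On the marker level 21 of the 68 rose and 10 fell, beside 20.7% and 8.62% of all genes. Genes of synthesis made up most of the rise, with 13 of 24 called higher and 2 lower (median slope 0.31). Adcy4 rose with a slope of 1.29 ± 0.06 and Adcy7 with 1.23 ± 0.06, both adenylyl cyclases, and Gucy1a2, a subunit of soluble guanylyl cyclase, with 0.81 ± 0.04. Of 22 effectors 4 rose and 3 fell, and of 14 anchors 4 rose, led by Akap12 at 1.24 ± 0.05, and 3 fell. Of 8 cardiac substrates 0 rose and 2 fell. These were the ryanodine receptor Ryr2 at -0.11 ± 0.04 and the calcium channel Cacna1c at -0.09 ± 0.03, named after their values were seen. Ryr2 also stands in the cardiomyocyte marker list. The part of the other-cell markers in these slopes was not tested.

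**Figure D4:**
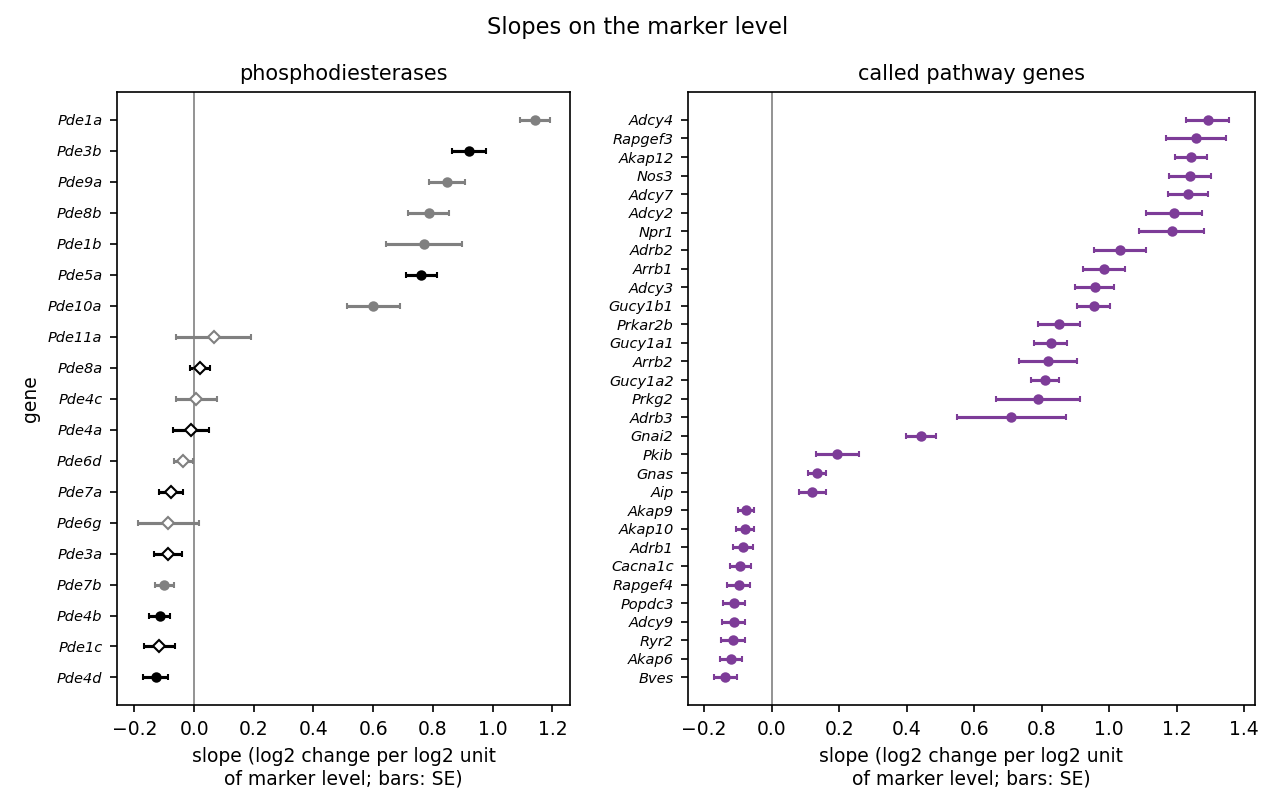
Slope on the marker level (log2 change per log2 unit, bars of 1 SE). On the left are the 9 tested members (black) and 10 other genes listed by their Pde symbol (grey), with open symbols for those not called. On the right are the 31 called pathway genes. Pde3b and Pde5a lie at 0.92 and 0.76, and the other 7 members between -0.13 and 0.02.

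After removal of group means and marker level, some pairs of members remained correlated and others did not. Over the 15 libraries the residual log2 CPM of Pde1c had a Pearson correlation of 0.851 with that of Pde4d and of -0.731 with that of Pde4a, and Pde3b one of 0.857 with Pde4b and 0.788 with Pde5a. These pairs were named for their values, and others lay near 0, such as Pde3a with Pde7a (0.0288) and Pde4d with Pde8a (-0.0637). The points share library depth and scaling, and the spread of such correlations over all gene pairs is not given here. Among all tested genes with proper names, those most like Pde4a were Macrod1 (0.977) and Reep1 (0.976), and those most like Pde1c were Rasal2 (0.952) and Fign (0.949). Pde4d was followed most closely by Cd44 (0.916) and Fermt2 (0.912), Pde4b by Piga (0.907) and Ythdf1 (0.904), and Pde3a by Ccdc169 (0.924) and Vmn2r57 (0.917). For Pde3b Slco5a1 (0.910) was among them, for Pde5a they were Lpxn (0.924) and Loxl2 (0.923), for Pde7a Bard1 (0.909) and Resf1 (0.889), and for Pde8a Nusap1 (0.959) and Tut7 (0.859). Some of these likenesses appear only after the marker level is removed: the plain log2 CPM of Pde3b and Slco5a1 had a correlation of -0.775, and that of Pde5a and Lpxn one of 0.2496. Each gene was picked as among the most alike of the tested genes with proper names, members left out. The 15 points had group means and marker level removed, so they are not 15 free values. Several of the genes, such as Nusap1 at 0.562 CPM, Vmn2r57 at 0.6245 CPM and Ccdc169 at 1.37 CPM, have few reads.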

How the data were processed

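The submitters' processing notes name STAR 2.5.3a, featureCounts 1.5.0 and the build GRCm38 (mm10). In the deposited tables the values are raw, whole-number counts of each gene, and gene length equals end minus start plus 1 in 100% of genes, so counts cover whole gene bodies. The larger table was used; the smaller holds 16610 of its genes with identical counts. Exon lengths are from GENCODE M21, whose gene coordinates match the table in 99.93% of shared genes.

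Counts were analysed in R 4.3.3 with edgeR 4.0.16: filterByExpr, TMM, and robust quasi-likelihood fits of 4 group means to all 15 libraries (11 residual degrees of freedom), with the marker level as a further term for the slope (10 degrees). Log2 CPM used a prior count of 2. A call means a p, adjusted by Benjamini-Hochberg over all tested genes, below 0.05. Fits were also run on simulated data, and DESeq2 1.42.0 was an alternative. The simulated libraries varied less than the fit of group means estimated here (common dispersion 0.163). That run therefore does not vouch for the genotype comparisons. Members and lists were chosen with earlier results of these data known. All members are named in the genotype comparisons and the slope, the 2 with the smallest p elsewhere, up to 4 pathway genes by p, and the 2 most correlated genes per member. Of the genes this rule picks, 2 are not reported here. A floor of 3 counts equals 0.0215 to 0.123 CPM, and floors and counting errors do not cover differences between samples. No pair of libraries of a group agreed within sampling noise (lowest chi-square per gene 30.1).

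Replicate numbers were checked as pairs by correlating deviations from group means: 0.169 to 0.699 between the male groups, which count as paired, and -0.41 to 0.708 between the female groups, which do not. Female and male libraries had 0.503 to 0.829 (knockout label) and 0.179 to 0.842 (wild-type label), also counted as paired. Replicate 1 had a high marker level in each group, and replicates 3 and 4 a low one. The part of the marker level in these correlations was not tested, so they do not show that samples were paired. The main fits did not use the pairs, and the replicate number as a block was an alternative.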

Additional observations from a re-analysis of the deposited data

Results flagged for a closer look

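Of 27 sets of 4 libraries (9 members in the 3 label groups of that size), 1 held a library far from the rest. Pde4d stood at 8022 CPM in the knockout-labelled male replicate 3, against 6382 to 6591 CPM in the other 3 libraries of that group, a gap of 0.872 of the whole range. That library has a low marker level (1.41), as has replicate 4 at 6575 CPM. Without it the slope of Pde4d on the marker level was not called (-0.13, adjusted p = 0.053). Chance flags about 1 in 20 such sets.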

How the results depend on the processing

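Over 414 alternative values of members between the genotype labels (23 for each gene and sex), 0 were called, 380 kept their direction and the smallest adjusted p was 0.67. The number of members called on the marker level was 2 to 4 when single libraries were left out, 4 with the replicate block and 0 in the libraries of low marker level alone. In that subset, 222 genes were called in place of 5110, and Pde1c (0.0735), Pde3a (0.0750), Pde4d (0.0390) and Pde8a (-0.12) changed sign. With the replicate block the slopes were -0.30 for Pde3a, -0.12 for Pde4d and 0.0300 for Pde4a. Pde4a also turned to 0.0307 without the 3 sex-mixed libraries, to 0.000224 with endothelial and to 0.0180 with mural markers as the level. By exon length, 6 of 10 members kept their rank, among them Pde2a at 0, and so 5 of the 9 with reads. The cause was not tested.

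In females, Pde3a turned to 0.14 in the libraries of high marker level alone, which hold 1 library under the wild-type label. It turned to 0.21 without the 3 sex-mixed libraries, a fit that gave -0.76 for Pde3b and -0.49 for Pde5a. The low-level libraries gave -0.0252 and -0.21 for Pde3b and Pde5a. In males, the high-level libraries, with 1 library under the wild-type label assumed to vary like the other groups, gave 0.23 for Pde1c, 0.34 for Pde3a, -0.22 for Pde3b, 0.0698 for Pde4b, 0.27 for Pde4d, -0.19 for Pde5a and 0.0573 for Pde7a. Pde3a was at 0.0456 without the 3 sex-mixed libraries. Pde3b and Pde5a were at -0.40 and -0.18 with the marker level as a term and at -0.83 and -0.41 in the low-level libraries. Without single libraries the female ranges were -0.27 to 0.12 for Pde3a, -0.40 to 1.76 for Pde3b, -0.35 to 0.11 for Pde4a, -0.23 to 1.33 for Pde5a and -0.0822 to 0.26 for Pde7a. The male ranges were -0.18 to 0.0388 for Pde3a, -0.41 to 1.06 for Pde3b, -0.25 to 1.02 for Pde5a and -0.15 to 0.0407 for Pde8a. Slopes ran from -0.0679 to 0.0479 for Pde4a and from -0.0143 to 0.0381 for Pde8a. A slope within the high-level libraries was not fitted, since too few degrees of freedom remained. Depth limits Pde3b and Pde5a most, with as few as 63 and 67 reads in a library.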
